A study of Mus musculus with 12 samples.

Results

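Heat shock proteins and their J-protein partners are the cell's chaperones, and 66 of their genes were followed here in mouse retina after an excitotoxic injury. The genes were taken by name: every gene in the deposited table whose symbol begins with Hspa, Hspb, Hsph, Hsp90, Dnaja, Dnajb or Dnajc, together with Hspd1, Hspe1 and Hsf1, without symbols marked as pseudogenes, and with a mean above 1 FPKM (a level scaled for transcript length and for the library's mapped fragments) in at least 1 of 6 groups. Of 75 such genes 66 passed, among 16471 genes that passed the same filter and 55487 in the table. The 9 that did not pass (Dnajb13, Dnajb7, Dnajb8, Dnajc22, Dnajc5b, Dnajc5g, Hspa1l, Hspb7 and Hspb9) reached at most 0.35 FPKM in any library. Hspb2, Hspb3, Hspa12b and Dnajb3 passed through some groups only, so a difference between groups was in part built into their choice. Hspb11, Hspbap1 and Hspbp1 matched by the letters of their names and are not small heat shock proteins.

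HSP70 proteins bind unfolded stretches of other proteins in cycles of ATP use, J proteins (the DNAJ families) bring them their substrates and speed that cycle, and HSP110 proteins exchange the nucleotide. HSP90 matures kinases and receptors, small HSPs hold aggregating proteins without ATP, and HSP60 with HSP10 folds proteins inside mitochondria. When misfolded protein builds up in the cytosol, the transcription factor HSF1 binds heat shock elements and switches on HSP70, HSP110 and small HSP genes, whereas stress in the endoplasmic reticulum (ER) acts on a separate set that includes Hspa5 (BiP) and Hsp90b1 (GRP94). In the retina, Müller glia and astrocytes are known for small HSPs, and neurons use J proteins such as cysteine string protein (Dnajc5) and auxilin (Dnajc6) at the synapse.

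The study asked how loss of the transcription factor PAX6 or of the stress kinase JNK3 alters the retina's response to NMDA, a glutamate receptor agonist that kills retinal ganglion cells (RGCs). The 12 libraries fell into 6 groups of 2: retinas of wild-type C57BL/6J mice (WT), of mice whose retinas had been infected with 2 μL of an AAV2.7m8 vector carrying a U6-driven hairpin against Pax6 and GFP (shPax6), and of Jnk3-/- mice (JNK3 KO), each collected 24 h after an intravitreal dose of PBS (1 μL) or NMDA (1 μL at 40 mM, 40 nmol). Vectors went into mice 2 months old, and the ages of the other mice are not given in the sources used here. Each library came from RNA of more than 3 retinas, so it is a pool of tissue, and since whether the 2 libraries of a group came from separate animals is not stated, p-values measure only the spread between these libraries. No library of retinas with a scrambled hairpin was analysed here, so infection and loss of PAX6 cannot be told apart in the shPax6 groups.

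The targeted genes were checked first. Pax6 had 173 and 177 FPKM in WT retinas under PBS and 94.6 and 92.8 in shPax6 retinas under PBS, a log2 difference of -0.90 (SE 0.07, adjusted p = 6.04e-05). After NMDA it was at 55.4 and 53.8 in WT, below the 67.5 and 58.7 of shPax6. Mapk10, which encodes JNK3, stood at 42.8 and 50.7 in WT PBS, 9.47 and 8.75 in JNK3 KO PBS and 8.98 and 6.00 in WT NMDA. The summed FPKM of all genes were 805627 and 820180 in the WT NMDA libraries and 541210 to 576922 in the other 10, so the WT NMDA pair stood apart, and as it is the whole group, what sets these 2 libraries apart and the WT response cannot be told apart. The retina was recognised by 10 rod genes, which summed to at least 23355 FPKM in every library. The members together held 4013 to 5318 FPKM per library (0.634% to 0.876% of the sum), and the median absolute log2 difference between 2 libraries of a group over the members was 0.07 to 0.14.

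The promoter stretches below are those of genes on which the results turn. They come from RefSeq promoters of build GRCm38.p6, which held 53 of the 66 members (250 bases before the start site and 50 after), and only bases before the start site are printed, 5′ to 3′ on the gene's strand. In the first set, capitals mark units of the heat shock element, GAA or its reverse complement TTC spaced by 2 bases. Hspd1 and Hspe1 lie head to head and share 1 stretch, printed once for each strand, that holds 2 overlapping elements of 3 units. Hspa1a and Hspa1b carry the same 48 bases with 1 head-to-head pair of units, and their 250 bases before the start site were identical at 98.8% of positions.
Hspd1 (chr1:55088044-55088091, minus strand): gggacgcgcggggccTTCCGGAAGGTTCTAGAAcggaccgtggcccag
Hspe1 (chr1:55088044-55088091, plus strand): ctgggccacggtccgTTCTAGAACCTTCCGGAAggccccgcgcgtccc
Hspa1a (chr17:34972233-34972280, minus strand): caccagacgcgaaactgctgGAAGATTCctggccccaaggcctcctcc
Hspa1b (chr17:34959315-34959362, minus strand): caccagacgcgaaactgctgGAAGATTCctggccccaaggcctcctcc
Hspb1 (chr5:135887782-135887849, plus strand): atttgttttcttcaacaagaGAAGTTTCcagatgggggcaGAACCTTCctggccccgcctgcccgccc
In the second set, capitals mark the ER stress element, CCAAT and CCACG spaced by 9 bases, on either strand.
Hspa5 (chr2:34772010-34772058, plus strand): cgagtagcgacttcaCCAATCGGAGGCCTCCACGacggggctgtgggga
Dnajc3 (chr14:118937812-118937860, plus strand): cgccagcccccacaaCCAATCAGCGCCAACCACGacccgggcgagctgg
Hsp90b1 (chr10:86705518-86705671, minus strand): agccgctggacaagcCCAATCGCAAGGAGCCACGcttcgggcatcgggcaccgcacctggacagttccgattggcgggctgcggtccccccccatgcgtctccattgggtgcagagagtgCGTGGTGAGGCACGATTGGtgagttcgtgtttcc
Shares are of genes with a match in any of their promoters. An element of 3 units (GAANNTTCNNGAA or TTCNNGAANNTTC) was in 4 of the 53 members (7.55%; Dnajb6, Hspd1, Hspe1 and Hsph1, where it lay after the start) and in 0.662% of all 27025 genes. Every such element also contains the pair GAANNTTC, which was in 13 members (24.5%) and in 9.04% of all genes, and the pair TTCNNGAA, which was in 6 members (11.3%) and in 9.6%. The ER stress element was in 3 members (5.66%) and in 0.137% of all genes. Both strands were searched, and a match describes these letters only, not binding.

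Chaperone genes changed after NMDA in all 3 genotypes. The largest rises to pass the test, among members that passed the filter in all 6 groups, were Dnajc15, Dnajc17 and Dnajc19 in WT. In shPax6 they were Hspb1, Hspa1b, Hspa1a and Hspb8, and in JNK3 KO Dnajb9 and Hspd1. In WT retinas 28 of the 66 rose and 21 fell (limma on log2(FPKM + 0.1), Benjamini-Hochberg adjusted p under 0.05 over all 16471 genes), where 26.0% of all genes rose and 33.8% fell. In shPax6 retinas 19 rose and 8 fell, against backgrounds of 19.1% and 11.0%, and the split was 14 and 13 with 75th-percentile scaling, 14 and 17 with quantile normalization, and 12 and 14 after length correction. In JNK3 KO retinas 9 rose and 5 fell, against 4.33% and 6.10%. With an absolute log2 difference above 1 as well, the counts were 7 up and 9 down in WT (14.2% and 20.9% of all genes), 6 up and 0 down in shPax6 (8.64% and 4.94%), and 0 up and 0 down in JNK3 KO (0.777% and 1.87%). The median log2 difference was 0.13 for the members and -0.09 for all genes in WT, 0.12 and 0.10 in shPax6, and -0.01 and -0.01 in JNK3 KO. Hsp90ab1, Hspa5, Hspd1 and Hspe1 rose in all 3 genotypes (4 members, 6.06%, against 0.984% of all genes), although in WT the first 3 of these turned negative under TPM and quantile normalization. Dnajc27 fell in all 3 (1 member, 1.52%, against 1.51% of all genes), and 13 members (19.7%, against 29.9%) were called in none. The shPax6 counts rest on a spread shared by all 6 groups: with the spread of the 4 shPax6 libraries alone 6 members were called in place of 27. The JNK3 KO count of 14 was 7 and 5 without each of its PBS libraries and 5 and 2 without each of its NMDA libraries.

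**Figure D1:**
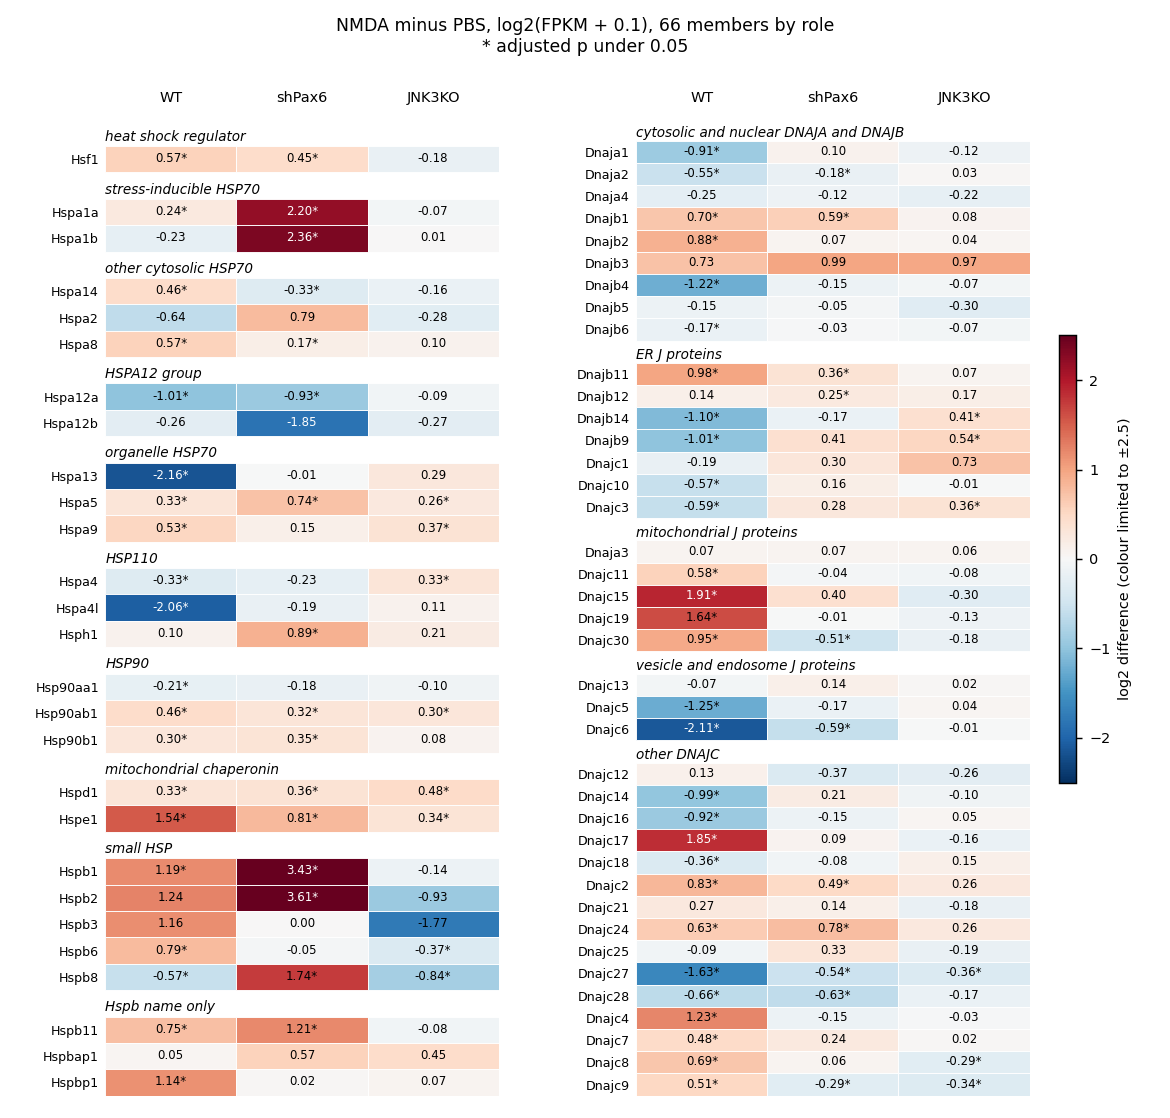
Heat map of the log2 difference between NMDA and PBS, on the scale log2(FPKM + 0.1), for the 66 members (rows, grouped by role) in WT, shPax6 and JNK3 KO retinas (columns), each cell the difference of 2 libraries against 2. Red is higher and blue lower after NMDA, asterisks mark adjusted p under 0.05, and the deepest reds are Hspb2, Hspb1, Hspa1b and Hspa1a in shPax6 retinas.

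In WT retinas the direction followed transcript length, which bears on every WT value below. Of 9 members with a spliced length under 1 kb 6 rose and 0 fell, and of 14 members over 4 kb 0 rose and 11 fell. Across the 66 members Spearman's rho between length and log2 difference was -0.739 in WT, -0.31 in shPax6 and 0.307 in JNK3 KO, and across all genes with a length it was -0.54, -0.158 and 0.227 (genes of the same libraries, given as a description). Rescaling each library to a common sum (TPM) moved the median of all genes in WT from -0.09 to -0.66 and the members' split from 28 up and 21 down to 11 up and 38 down, quantile normalization gave 20 up and 23 down, and removing each library's trend on length gave 27 up and 13 down. Under TPM, 75th-percentile scaling, quantile normalization and the length correction together, 8 members rose in each (Dnajb11, Dnajb2, Dnajc15, Dnajc17, Dnajc19, Dnajc30, Hspbp1 and Hspe1) and 10 fell in each (Dnaja1, Dnaja2, Dnajb4, Dnajb6, Dnajb9, Dnajc14, Dnajc27, Dnajc6, Hspa13 and Hspa4l). By the same measure 12 of 19 rises and 8 of 8 falls were kept in shPax6, and 5 of 9 rises and 3 of 5 falls in JNK3 KO. The part of RNA quality or library making in the WT pattern was not tested.

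**Figure D2:**
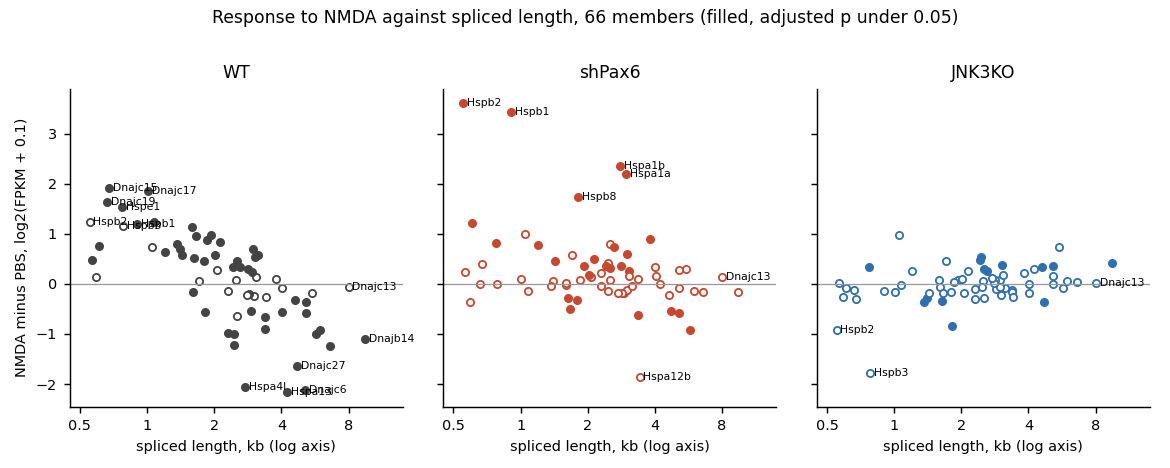
Log2 difference between NMDA and PBS (vertical axis) against spliced length of the most abundant transcript in kb (horizontal log axis) for the 66 members, 1 panel per genotype, filled where adjusted p was under 0.05. In WT the points fall from short to long transcripts (rho -0.739), while in shPax6 Hspa1a and Hspa1b, both over 2 kb, stand well above members of their length.

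Hsf1, the factor that switches on heat shock genes, rose modestly in WT and shPax6 on the FPKM scale, and neither rise was kept after length correction. It stood at 23.1 and 24.8 FPKM in WT under PBS and 37.8 and 33.6 after NMDA, 21.8 and 23.4 in shPax6 under PBS and 33.0 and 29.0 after NMDA, and 28 and 31.3 in JNK3 KO under PBS and 26.9 and 25.4 after NMDA. The NMDA libraries lay above the PBS libraries in WT and shPax6 and below them in JNK3 KO. The log2 difference was 0.57 (SE 0.10, adjusted p = 0.000941) in WT, 0.45 (SE 0.10, adjusted p = 0.00925) in shPax6 and -0.18 (SE 0.10, adjusted p = 0.336) in JNK3 KO. The WT value was 0 under TPM and -0.04 after length correction, which also ended the shPax6 call (0.24, adjusted p = 0.124). The length used was that of its most abundant transcript. That transcript held only 18.1% to 28.4% of the FPKM of Hsf1 per library, so the correction is uncertain for this gene. RNA level does not report HSF1 activity, which is set on the protein.

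The stress-inducible HSP70 genes rose several-fold after NMDA in shPax6 retinas and not in JNK3 KO retinas, and the responses of shPax6 and WT differed. Hspa1a (chr17:34969190-34972156, minus strand, build GRCm38) stood at 19.2 and 18.4 FPKM in WT under PBS and 23.7 and 20.9 after NMDA, 35.8 and 33.4 in shPax6 under PBS and 152 and 168 after NMDA, and 22.2 and 22.6 in JNK3 KO under PBS and 20.8 and 21.7 after NMDA. Only the shPax6 libraries left the range of 18.4 to 23.7 FPKM, and they did so before NMDA as well as after it. Hspa1b (chr17:34956436-34959238, minus strand), its neighbour on the chromosome, stood at 18.1 and 17.7 FPKM in WT under PBS and 16.9 and 13.7 after NMDA, 30.7 and 31.8 in shPax6 under PBS and 158 and 162 after NMDA, and 21.1 and 19.0 in JNK3 KO under PBS and 20.7 and 19.6 after NMDA. In shPax6 retinas Hspa1a rose 4.59-fold after NMDA, by 2.20 (SE 0.09, adjusted p = 5.61e-07) on the log2 scale, and Hspa1b 5.13-fold, by 2.36 (SE 0.10, adjusted p = 9.55e-07). In JNK3 KO retinas the differences were -0.07 (SE 0.09, adjusted p = 0.674) and 0.01 (SE 0.10, adjusted p = 0.987). In WT, Hspa1a rose by 0.24 (SE 0.09, adjusted p = 0.0337), which turned to -0.33 under TPM, and Hspa1b differed by -0.23 (SE 0.10, adjusted p = 0.0791). The WT response minus the shPax6 response was -1.96 (SE 0.12, adjusted p = 4.64e-06) for Hspa1a and -2.59 (SE 0.14, adjusted p = 3.01e-06) for Hspa1b, and these stayed called under all 12 alternatives and without any 1 library. Their transcripts share sequence (46.9% of read-length windows of Hspa1a occur in Hspa1b), so the split of reads between them is uncertain. Summed, they held 34.6 to 43.3 FPKM in the 8 WT and JNK3 KO libraries, 65.2 and 66.5 in shPax6 PBS, and 310.2 and 329.8 in shPax6 NMDA.

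Small HSPs, which keep damaged proteins soluble, counted 5 members by their Hspb symbols. Of these 3 rose in shPax6, 2 rose and 1 fell in WT, and 0 rose and 2 fell in JNK3 KO. The 3 include Hspb2, whose rise was in part built into its choice. The α-crystallins Cryaa and Cryab are small HSPs without that symbol and were counted with the wider machinery and the lens genes. On the FPKM scale both rose in every genotype, in JNK3 KO by 0.67 (SE 0.09, adjusted p = 0.00279) and 0.69 (SE 0.05, adjusted p = 6.8e-05). Length correction ended the WT call of Cryaa (0.12, adjusted p = 0.295). Of all genes 26.0% rose and 33.8% fell in WT, 19.1% and 11.0% in shPax6, and 4.33% and 6.10% in JNK3 KO. These shares also stand beside the counts by role below, each of which covers few genes. Hspb1 (HSP25, chr5:135887919-135889563, plus strand) stood at 7.11 and 5.42 FPKM in WT under PBS and 16.6 and 12.4 after NMDA, 7.44 and 5.25 in shPax6 under PBS and 76.9 and 61.2 after NMDA, and 5.34 and 4.68 in JNK3 KO under PBS and 5.09 and 4.01 after NMDA. All PBS libraries lay below 8 FPKM, and the shPax6 NMDA libraries lay above all others. Hspb1 rose 10.8-fold in shPax6, by 3.43 (SE 0.23, adjusted p = 1.1e-05), and 2.28-fold in WT, by 1.19 (SE 0.23, adjusted p = 0.00177), where the length-corrected value was 0.27. In JNK3 KO the difference was -0.14 (SE 0.23, adjusted p = 0.791), and the shPax6 response minus the JNK3 KO response was 3.58 (SE 0.33, adjusted p = 0.000179). The pseudogene Hsp25-ps1 shares 56.3% of the read-length windows of Hspb1.

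Hspb8, the partner of the co-chaperone BAG3 in selective autophagy, moved in every genotype but not in one direction. It (chr5:116408491-116422864, minus strand) stood at 7.09 and 6.96 FPKM in WT under PBS and 4.76 and 4.61 after NMDA, 2.10 and 1.99 in shPax6 under PBS and 7.68 and 6.48 after NMDA, and 6.99 and 7.36 in JNK3 KO under PBS and 4.07 and 3.87 after NMDA. Under PBS the shPax6 libraries were lowest of all 12 and after NMDA they stood near the WT PBS level, while in WT and JNK3 KO the NMDA libraries lay below PBS. The log2 differences were 1.74 (SE 0.15, adjusted p = 3.58e-05) in shPax6, -0.57 (SE 0.15, adjusted p = 0.00721) in WT and -0.84 (SE 0.15, adjusted p = 0.00797) in JNK3 KO. Hspb6 (HSP20) was the most abundant small HSP among the members. It held 113 and 118 then 196 and 202 FPKM in WT. In shPax6 it held 108 and 109.6 then 108 and 102, and in JNK3 KO 133 and 135 then 108 and 100.1. It rose by 0.79 (SE 0.05, adjusted p = 2.53e-06) in WT, where length correction left 0.13, and fell in JNK3 KO by 0.37 on the log2 scale (SE 0.05, adjusted p = 0.00381). In shPax6 it differed by -0.05 (SE 0.05, adjusted p = 0.512).

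Hspb2 and Hspb3, small HSPs best known from muscle, were near the limit of the data. Hspb2 held 0.90 and 0.90 then 2.10 and 2.44 FPKM in WT, 0 and 0.23 then 1.86 and 2.42 in shPax6, and 1.31 and 1.48 then 0.40 and 1.12 in JNK3 KO. Its difference in shPax6 was 3.61 (SE 0.59), with 1 PBS library listed at 0, and the size depends on the constant added: it was 1.5 with a pseudocount of 1. Hspb2 passed the filter on low values through WT NMDA, shPax6 NMDA and JNK3 KO PBS only. Its rise in shPax6 was thus in part built into its choice and is not read as a test result. Hspb3 was listed at 0 in all 4 shPax6 libraries and held 0.42 and 0.57 then 0.93 and 1.59 in WT and 0.57 and 1.35 then 0.19 and 0.19 in JNK3 KO. Hspb3 passed the filter on low values only through the WT NMDA group, so its differences are not read as a test result. Both genes stay in the counts of calls given above and below.

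**Figure D3:**
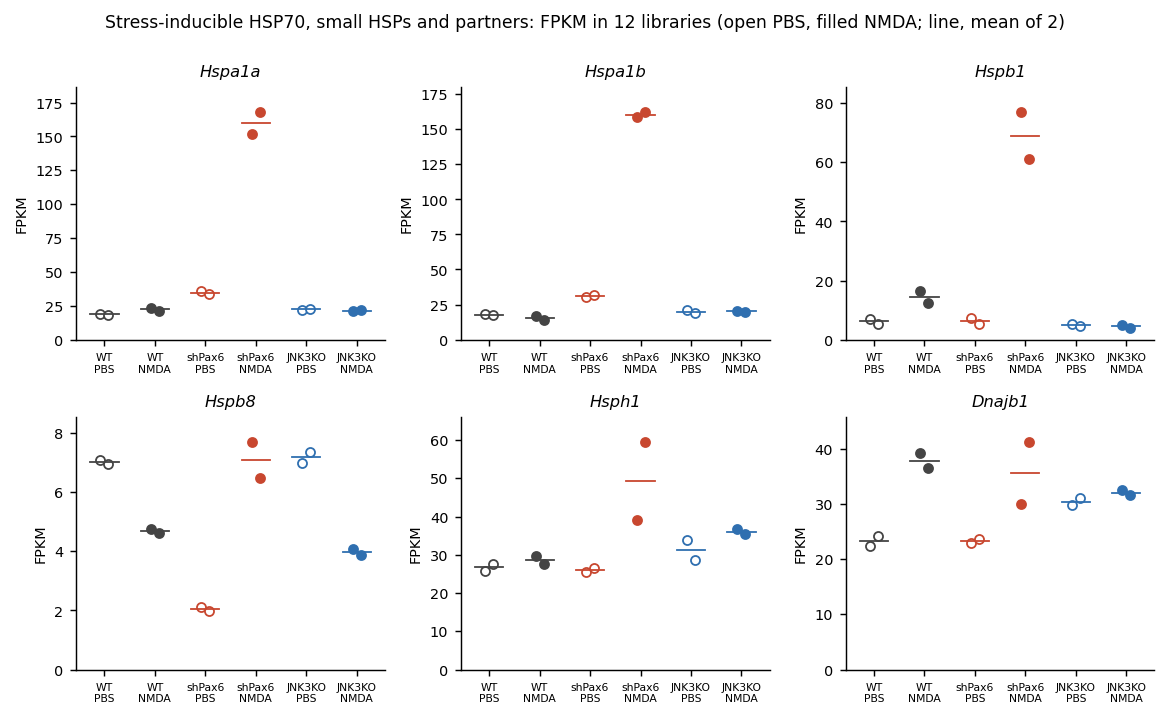
FPKM (vertical axes from 0, linear) of Hspa1a, Hspa1b, Hspb1, Hspb8, Hsph1 and Dnajb1 in each of the 12 libraries, by genotype and injection, open circles for PBS, filled for NMDA, and a line at the mean of 2. Hspa1a and Hspa1b reach 152 to 168 in the shPax6 NMDA libraries and stay below 36 in all others, and the shPax6 NMDA libraries of Hsph1 and Dnajb1 lie far apart from each other.

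Sums of gliosis, Müller glia, microglia and mural genes were highest in shPax6 NMDA, as were Hspa1a, Hspa1b and Hspb1, while other marker sets went otherwise. The summed FPKM of 10 gliosis genes were 3109.5 and 3111.23 in the shPax6 NMDA libraries, where 10 of 10 rose, against 1069.92 to 1101.79 in shPax6 PBS, 1445.52 to 1514.84 in WT NMDA and 616.58 to 624.18 in JNK3 KO NMDA. A set of 9 Müller glia genes summed to 4391.26 to 4672.21 in shPax6 NMDA (5 rose, 2 fell) and 2704.34 to 2845.4 in shPax6 PBS. In WT 4 gliosis genes rose and 6 fell with NMDA, and 3 Müller glia genes rose and 6 fell. The Müller glia sum in WT was 1704.93 to 1770.25 under PBS and 2291.53 to 2301.29 after NMDA. Lcn2 is on both the gliosis and the neutrophil list. A set of 12 microglia and macrophage genes summed to 804.1 to 841.11 in shPax6 NMDA (8 rose) and to at most 291.28 in any other group, and 9 mural and smooth muscle genes to 43.06 to 54.33 in shPax6 NMDA and at most 26.41 elsewhere. A set of 8 neutrophil genes summed to 2076.91 to 2101.01 in shPax6 NMDA, 2884.91 to 2903.8 in WT NMDA and 146.98 to 154.75 in JNK3 KO NMDA. Under PBS the sums were 508.61 to 517.02 in shPax6, 1002.15 to 1056.85 in WT and 746.41 to 756.15 in JNK3 KO. With NMDA 6 of the 8 rose in shPax6, 5 rose in WT and 6 fell in JNK3 KO. A set of 12 RGC genes summed to 88.46 to 103.01 in shPax6 NMDA and were already at 212 to 214.8 in shPax6 PBS, against 644.61 to 667.38 in WT PBS. After NMDA their sum was 397.26 to 422.83 in WT, where 10 of 12 fell, and in JNK3 KO it went from 610.69 to 660.46 under PBS to 186.25 to 187.08, where 8 of 12 fell. A set of 10 rod genes summed to 27510.2 to 27594.02 in WT PBS, to 36620.88 to 39451.21 in shPax6 PBS, where 10 of 10 were higher than in WT, and to 23355.41 to 23773.78 in shPax6 NMDA, where 8 fell and 1 rose. Of 6 retinal pigment epithelium genes tested 4 fell in shPax6 and 0 were lower in JNK3 KO, and 5 of 5 erythrocyte genes rose in WT, to a sum of 613.44 to 649.96 FPKM. No gene on these lists was at 0 in every library. The part of these cells in the chaperone values was not tested, and in such bulk tissue fewer cells of a type and less RNA per cell cannot be told apart.

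Hsph1 and Dnajb1, cytosolic partners of HSP70, rose in shPax6 by smaller amounts than Hspa1a and Hspa1b. Other cytosolic partners, given below, did not rise as a group. Hsph1 (HSP110), the exchange factor induced by heat, stood at 25.8 and 27.6 FPKM in WT under PBS and 29.6 and 27.6 after NMDA, 25.5 and 26.6 in shPax6 under PBS and 39.1 and 59.4 after NMDA, and 33.9 and 28.6 in JNK3 KO under PBS and 36.6 and 35.5 after NMDA. The shPax6 NMDA libraries were above their PBS pair and lay far apart, and the difference was 0.89 (SE 0.17, adjusted p = 0.00404). Dnajb1 (HSP40), a J protein induced with HSP70, held 22.3 and 24.2 then 39.2 and 36.4 FPKM in WT, 23.0 and 23.6 then 29.9 and 41.2 in shPax6, and 29.7 and 31.0 then 32.5 and 31.6 in JNK3 KO. Its NMDA libraries were above PBS in WT and shPax6, by 0.70 (SE 0.13, adjusted p = 0.00126) and 0.59 (SE 0.13, adjusted p = 0.00855), with 0.13 under TPM in WT.

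Hspa8, the constitutive HSC70, was the most abundant member at 17.9% to 26.0% of the members' FPKM. It held 889 and 914 then 1336 and 1349 FPKM in WT, 752 and 786 then 891 and 839 in shPax6, and 1081 and 981 then 1117 and 1096 in JNK3 KO. The WT NMDA libraries were highest, a difference of 0.57 (SE 0.05, adjusted p = 1.35e-05) that was 0 under TPM and -0.87 under quantile normalization. In shPax6 it differed by 0.17 (SE 0.05, adjusted p = 0.038), and length correction turned this to -0.01. Of its read-length windows 73.7% occur in other genes (9 of them), most in Gm26825 (67.8%). Hspa2 was low, with 2.79 and 2.5 then 1.77 and 1.56 FPKM in WT, 2.71 and 0.94 then 3.18 and 2.57 in shPax6, and 2.43 and 2.37 then 2.16 and 1.77 in JNK3 KO, and passed the test in no NMDA comparison. Hspa14, a ribosome-bound HSP70, held 27.3 and 26.0 then 36.9 and 36.5 FPKM in WT, 39.6 and 34.5 then 26.5 and 32.6 in shPax6, and 35.6 and 32.2 then 30.3 and 30.1 in JNK3 KO. It rose in WT by 0.46 (SE 0.11, adjusted p = 0.00527), which turned to -0.11 under TPM. The shPax6 difference was -0.33 (SE 0.11, adjusted p = 0.0493), a call that held in 2 of the 12 fits with 1 library left out (-0.48 to -0.18) and not with the replicate block (adjusted p = 0.0664).

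Of the other HSP110 genes, both fell in WT and 1 rose in JNK3 KO. Hspa4l (APG1), most abundant in testis and nervous tissue, had 83.2 and 80.1 then 21.9 and 17.4 FPKM in WT, 70.6 and 80.1 then 64.3 and 67.5 in shPax6, and 71.7 and 78.3 then 79.9 and 81.4 in JNK3 KO. The WT NMDA libraries lay at 17.4 and 21.9 FPKM while the other 10 lay between 64.3 and 83.2. The fall in WT was -2.06 (SE 0.11, adjusted p = 4.59e-07), -1.89 after length correction, and the WT response minus the JNK3 KO response was -2.16 (SE 0.15, adjusted p = 4.96e-06). Hspa4 (APG2) held 54.9 and 55.3 then 45.4 and 42.5 FPKM in WT, 55.4 and 56.3 then 46.8 and 48.4 in shPax6, and 51.2 and 59.9 then 68.0 and 71.2 in JNK3 KO. It was lower after NMDA in WT, with a log2 difference of -0.33 (SE 0.08, adjusted p = 0.0057) that became 0.49 after length correction, and higher in JNK3 KO, by 0.33 (SE 0.08, adjusted p = 0.0304). Hspa12a, a distant HSP70 relative found in neurons, held 61.2 and 55.5 then 30.5 and 27.4 FPKM in WT, 35.4 and 38.0 then 18.8 and 19.5 in shPax6, and 47.7 and 50.1 then 47.1 and 44.8 in JNK3 KO. In shPax6 it was below WT before NMDA (-0.67, SE 0.08, adjusted p = 0.000812) and fell further with NMDA (-0.93, SE 0.08, adjusted p = 5e-05). The WT difference of -1.01 (SE 0.08, adjusted p = 6.57e-06) was 0.05 after length correction. Hspa12b, of endothelium, stayed at or below 1.14 FPKM in every library.

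Cytosolic HSP90 was abundant, and its inducible and constitutive forms moved in opposite directions in WT on the FPKM scale. Hsp90aa1, the inducible form, held 777 and 795 then 725 and 634 FPKM in WT, 797 and 812 then 729.8 and 690.2 in shPax6, and 921 and 930.1 then 842 and 886 in JNK3 KO. Its highest libraries were the JNK3 KO PBS pair, and the WT difference was -0.21 (SE 0.06, adjusted p = 0.0139), 0 after length correction. Hsp90ab1, the constitutive form, held 292 and 284 then 393 and 398 FPKM in WT, 233 and 238 then 291 and 296 in shPax6, and 312 and 307 then 376 and 388 in JNK3 KO. NMDA libraries were above PBS in each genotype, by 0.46 (SE 0.04, adjusted p = 8.13e-06) in WT, 0.32 (SE 0.04, adjusted p = 0.000347) in shPax6 and 0.30 (SE 0.04, adjusted p = 0.00176) in JNK3 KO, with the WT sign turned under TPM (-0.12) and quantile normalization (-0.50). WT minus shPax6 was 0.14 (SE 0.05, adjusted p = 0.057), and WT minus JNK3 KO was 0.15 (SE 0.05, adjusted p = 0.0397), or -0.44 under TPM and -0.96 with quantile normalization.

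Hspa5 rose in shPax6 and JNK3 KO under each of the 4 scaling and length alternatives, while its WT rise turned negative under 2 of them. Hspa5 (BiP), the ER's HSP70 and its stress sensor, held 190.5 and 187 then 241 and 235 FPKM in WT, 172 and 162 then 271 and 286 in shPax6, and 206 and 197 then 237 and 244 in JNK3 KO. NMDA and PBS libraries did not overlap in any genotype. It rose by 0.74 (SE 0.05, adjusted p = 9.72e-06) in shPax6, 0.33 (SE 0.05, adjusted p = 0.000293) in WT and 0.26 (SE 0.05, adjusted p = 0.0124) in JNK3 KO, and the shPax6 response exceeded that of JNK3 KO by 0.48 (SE 0.07, adjusted p = 0.00209). In WT the sign turned under TPM (-0.24) and quantile normalization (-0.42), and relative to the median of all genes the rise was 0.42. Hsp90b1 (GRP94) held 211 and 216 then 261 and 265 FPKM in WT, 166 and 179.6 then 218 and 223 in shPax6, and 210.0 and 204 then 217 and 222 in JNK3 KO. It rose by 0.35 (SE 0.05, adjusted p = 0.000645) in shPax6, from a PBS level below WT (-0.31, SE 0.05, adjusted p = 0.00286). In WT it rose by 0.30 (SE 0.05, adjusted p = 0.000523), again negative under TPM (-0.27) and quantile normalization (-0.51).

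Of 7 members grouped as ER J proteins, 1 rose and 4 fell in WT, 2 rose in shPax6 and 3 rose in JNK3 KO. None of the 3 in JNK3 KO stayed called under all 4 scaling and length alternatives. Dnajc16 and Dnajc25 were counted with the other DNAJC genes. Dnajb9 (ERdj4), a target of the ER stress factor XBP1, held 11.6 and 11.3 then 6.65 and 4.78 FPKM in WT, 14.1 and 15.3 then 19.9 and 19.3 in shPax6, and 11.4 and 12.1 then 17.8 and 16.6 in JNK3 KO. It fell in WT (-1.01, SE 0.15, adjusted p = 0.000263), rose in JNK3 KO (0.54, SE 0.15, adjusted p = 0.0478) and was 0.41 (SE 0.15, adjusted p = 0.0621) in shPax6. Leaving out 1 library ended the JNK3 KO call in 10 of 12 cases, all but the WT NMDA pair, and the WT response minus the JNK3 KO response was -1.55 (SE 0.21, adjusted p = 0.000221). Dnajc3 (p58IPK), whose promoter stretch is printed above, held 11.9 and 12 then 7.45 and 8.40 FPKM in WT, 12.6 and 13.2 then 15.7 and 15.6 in shPax6, and 11.2 and 12 then 15 and 14.9 in JNK3 KO. Its WT difference, -0.59 (SE 0.10, adjusted p = 0.000599), became 0.35 after length correction, and in JNK3 KO it rose by 0.36 (SE 0.10, adjusted p = 0.0471), or 0.26 after length correction (adjusted p = 0.151). Dnajb14, a transcript of 9477 bases, held 11.7 and 11.3 then 5.13 and 5.56 FPKM in WT, 11.9 and 11.9 then 11.0 and 10.2 in shPax6, and 9.11 and 9.46 then 12.3 and 12.4 in JNK3 KO. It was lower in WT (-1.10, SE 0.10, adjusted p = 1.49e-05, 0.39 after length correction) and higher in JNK3 KO (0.41, SE 0.10, adjusted p = 0.0364), or 0.14 after length correction (adjusted p = 0.461). With 1 library left out the JNK3 KO calls of Dnajc3 and Dnajb14 each held in 6 of 12 cases, and with the replicate block the adjusted p of Dnajc3 was 0.0591. Dnajb11 (ERdj3) rose in WT from 43.5 and 43.8 to 83.4 and 89.2 FPKM (0.98, SE 0.06, adjusted p = 1.82e-06) and was called in 12 of 12 alternatives.

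Hspa13 (STCH), a small HSP70 of microsomes, gave the deepest fall of the members in WT on the FPKM scale, though after length correction Hspa4l was lower. It held 12 and 11.0 then 2.36 and 2.62 FPKM in WT, 8.09 and 11.6 then 9.53 and 9.74 in shPax6, and 9.26 and 9.83 then 11.7 and 11.7 in JNK3 KO. The WT NMDA libraries lay at 2.36 and 2.62 FPKM and all others at 8.09 or more. The fall was -2.16 (SE 0.17, adjusted p = 4.33e-06) and -1.46 after length correction, while shPax6 and JNK3 KO differed by -0.01 (SE 0.17, adjusted p = 0.994) and 0.29 (SE 0.17, adjusted p = 0.337). WT minus JNK3 KO was -2.45 (SE 0.23, adjusted p = 2.91e-05).

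**Figure D4:**
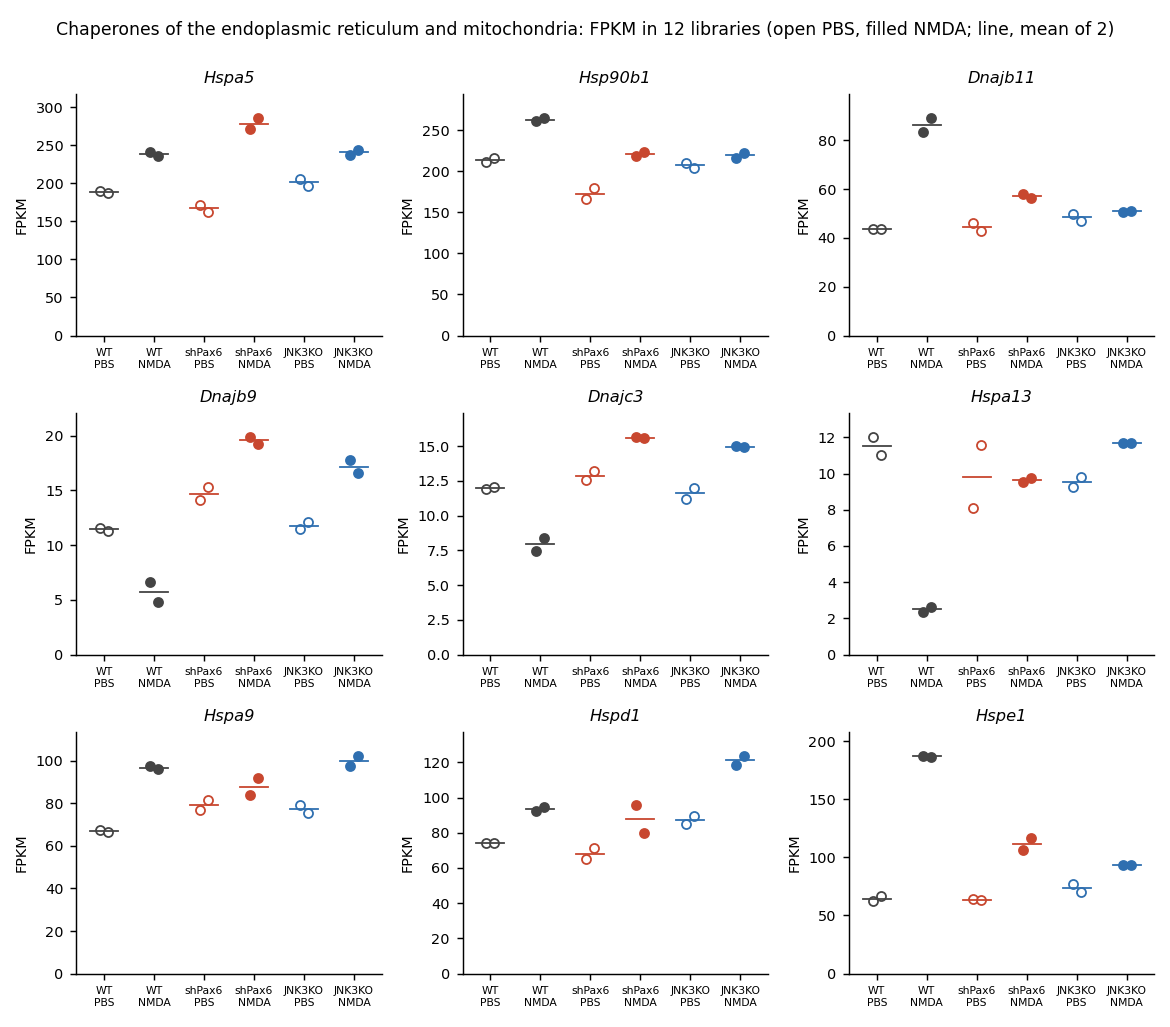
FPKM (vertical axes from 0, linear) of 6 ER and 3 mitochondrial chaperone genes in the 12 libraries, open circles for PBS, filled for NMDA, and a line at the mean of 2. Hspa5, Hspd1 and Hspe1 are higher after NMDA in each genotype, and Hspa13 drops to 2.36 and 2.62 in the WT NMDA libraries.

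On the FPKM scale both genes of the mitochondrial chaperonin rose in shPax6 and JNK3 KO, and in WT Hspe1 rose under all 4 scaling and length alternatives whereas Hspd1 turned negative under 2 of them. Hspd1 (HSP60) held 74.0 and 74.2 then 92.4 and 94.4 FPKM in WT, 65.0 and 71.2 then 95.6 and 80.0 in shPax6, and 84.9 and 89.2 then 119 and 124 in JNK3 KO. NMDA libraries were above PBS libraries in each genotype, by 0.33 (SE 0.08, adjusted p = 0.00726) in WT, 0.36 (SE 0.08, adjusted p = 0.011) in shPax6 and 0.48 (SE 0.08, adjusted p = 0.0087) in JNK3 KO, with the WT sign turned under TPM (-0.24) and quantile normalization (-0.21). Length correction ended the shPax6 call of Hspd1 (0.21, adjusted p = 0.116), which held in 8 of 12 alternatives. Hspe1 (HSP10), transcribed from the same start region in the other direction, held 62.1 and 66.5 then 187 and 187 FPKM in WT, 63.8 and 63.3 then 106 and 117 in shPax6, and 77.3 and 70.5 then 93.9 and 93.2 in JNK3 KO. It rose by 1.54 (SE 0.07, adjusted p = 1.68e-07) in WT, 0.81 (SE 0.07, adjusted p = 3.55e-05) in shPax6 and 0.34 (SE 0.07, adjusted p = 0.0142) in JNK3 KO. The sizes of the paired genes' WT responses were not compared by a test. After length correction the values were 0.34 for Hspd1, of 2423 bases, and 0.56 for Hspe1, of 774 bases. Hspa9 (mortalin), the HSP70 of mitochondria, held 67.7 and 66.6 then 97.6 and 96.0 FPKM in WT, 76.7 and 81.5 then 84.0 and 91.7 in shPax6, and 79.1 and 75.4 then 97.4 and 102 in JNK3 KO. It rose in WT (0.53, SE 0.06, adjusted p = 7.03e-05; -0.05 under TPM) and in JNK3 KO (0.37, SE 0.06, adjusted p = 0.00703), while in shPax6, where the 81.5 FPKM of a PBS library came close to the NMDA pair, it was 0.15 (SE 0.06, adjusted p = 0.1).

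Mitochondrial J proteins with short transcripts rose in WT. Dnajc15 and Dnajc19, small proteins of the import motor at the inner membrane, held 10.8 and 14.7 then 55.8 and 40.8 FPKM, and 26.8 and 25.6 then 80.0 and 83.7 FPKM, in WT. Dnajc15 held 12.7 and 11.4 then 12.3 and 20.4 in shPax6 and 15.4 and 19.0 then 12.6 and 15.2 in JNK3 KO, and Dnajc19 held 26.5 and 30.5 then 25.6 and 31.3 and 36.9 and 36.8 then 33.0 and 34.2. In WT they rose by 1.91 (SE 0.26, adjusted p = 0.000176) and 1.64 (SE 0.10, adjusted p = 1.36e-06), with 0.92 and 0.66 after length correction. The WT response minus the shPax6 response was 1.51 (SE 0.37, adjusted p = 0.00784) and 1.65 (SE 0.15, adjusted p = 3e-05). Of the 5 members grouped as mitochondrial J proteins 4 rose in WT and 0 were called in JNK3 KO. In shPax6 0 rose and Dnajc30 fell (-0.51, SE 0.13, adjusted p = 0.014). Dnajc4, which rose in WT, and Dnajc28, which fell in WT and shPax6, were counted with the other DNAJC genes.

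Of 3 J proteins of vesicles and endosomes 2 fell in WT, 1 fell in shPax6 and 0 were called in JNK3 KO. Dnajc6 (auxilin, which with HSC70 strips clathrin from vesicles) held 49.7 and 47.2 then 10.7 and 11.6 FPKM in WT, 42.7 and 41.7 then 25.4 and 30.8 in shPax6, and 41.9 and 38.0 then 40.1 and 39.0 in JNK3 KO. It fell in WT (-2.11, SE 0.10, adjusted p = 2.72e-07; -1.16 after length correction) and in shPax6 (-0.59, SE 0.10, adjusted p = 0.00214), and was -0.01 (SE 0.10, adjusted p = 0.976) in JNK3 KO. Dnajc5 (cysteine string protein) held 107 and 106 then 45.5 and 44.2 FPKM in WT, 119 and 113 then 97.7 and 108 in shPax6, and 104 and 103 then 109.8 and 103 in JNK3 KO. Its WT fall of -1.25 (SE 0.06, adjusted p = 4.06e-07) was -0.06 after length correction. Dnajc13, an endosomal protein with a transcript of 8012 bases, was called in no NMDA comparison.

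Of 9 cytosolic and nuclear DNAJA and DNAJB genes 2 rose and 4 fell in WT, 1 rose and 1 fell in shPax6, and 0 were called in JNK3 KO. Dnaja1 held 99.6 and 100.4 then 54.6 and 51.6 FPKM in WT, 69.8 and 90.6 then 96.6 and 74.7 in shPax6, and 116 and 103 then 102 and 99.5 in JNK3 KO. It fell in WT (-0.91, SE 0.14, adjusted p = 0.000373), and its shPax6 libraries overlapped between PBS and NMDA. Dnajb2, a neuronal J protein that works with the proteasome, held 62.3 and 61.1 then 114 and 114 FPKM in WT, 66.5 and 71.6 then 71.4 and 73.5 in shPax6, and 68.8 and 67.4 then 67.3 and 72.3 in JNK3 KO. It rose in WT (0.88, SE 0.06, adjusted p = 1.91e-06) and was 0.07 (SE 0.06, adjusted p = 0.411) in shPax6 and 0.04 (SE 0.06, adjusted p = 0.792) in JNK3 KO. Dnajb6, which keeps polyglutamine proteins from aggregating, held 82.0 and 80.5 then 72.4 and 71.6 FPKM in WT, 76.6 and 73.8 then 75.2 and 71.7 in shPax6, and 85.0 and 84.4 then 80.8 and 81.0 in JNK3 KO. The fall in WT was -0.17 (SE 0.05, adjusted p = 0.0135), or -0.66 after length correction and -0.75 under TPM. Dnajb5 held 20.1 and 18.4 then 18.5 and 16.2 FPKM in WT, 13.3 and 12.6 then 17.6 and 8.89 in shPax6, and 19.2 and 17.1 then 14.9 and 14.6 in JNK3 KO. It was called in no comparison, and its shPax6 NMDA libraries were on either side of their PBS pair. Dnajb4 fell in WT from 20.3 and 22.4 to 8.66 and 9.59 FPKM (-1.22, SE 0.13, adjusted p = 4.2e-05), and WT minus JNK3 KO was -1.14 (SE 0.19, adjusted p = 0.000785).

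Among the other DNAJC genes 7 of 15 rose and 5 fell in WT. Dnajc17, a nuclear J protein tied to splicing, held 11.1 and 13.3 then 43.1 and 44.7 FPKM in WT, 12.8 and 14.9 then 16.4 and 13.2 in shPax6, and 12.3 and 14.9 then 11.2 and 13.1 in JNK3 KO. It rose in WT, by 1.85 (SE 0.16, adjusted p = 8.91e-06), and WT minus shPax6 was 1.76 (SE 0.22, adjusted p = 0.000226). Dnajc27, a J protein with a small GTPase domain, held 33.0 and 33.2 then 10.7 and 10.5 FPKM in WT, 24.4 and 24.2 then 16.5 and 16.8 in shPax6, and 28.2 and 26.9 then 22.1 and 20.9 in JNK3 KO. NMDA libraries were below PBS in each genotype, with log2 differences of -1.63 (SE 0.07, adjusted p = 1.84e-07), -0.54 (SE 0.07, adjusted p = 0.000605) and -0.36 (SE 0.07, adjusted p = 0.0156) in WT, shPax6 and JNK3 KO. Dnajc28 held 8.38 and 8.84 then 5.40 and 5.39 FPKM in WT, 9.82 and 9.32 then 7.18 and 5.24 in shPax6, and 7.79 and 8.96 then 7.57 and 7.26 in JNK3 KO. It fell in shPax6 (-0.63, SE 0.16, adjusted p = 0.0158) and in WT (-0.66, SE 0.16, adjusted p = 0.00552). Dnajc9, a histone chaperone, held 34.0 and 35.6 then 49.8 and 49.6 FPKM in WT, 38.9 and 42.4 then 33.2 and 33.1 in shPax6, and 42.9 and 46.6 then 34.5 and 36.3 in JNK3 KO. It rose in WT (0.51, SE 0.07, adjusted p = 0.000209; -0.06 under TPM) and fell in shPax6 (-0.29, SE 0.07, adjusted p = 0.0142) and JNK3 KO (-0.34, SE 0.07, adjusted p = 0.0194). Of the genes that match by name only, Hspb11, a cilium protein, rose in shPax6 (1.21, SE 0.21, adjusted p = 0.00233) and WT (0.75, SE 0.21, adjusted p = 0.0117; -0.21 after length correction), and Hspbp1, an HSP70 exchange factor, rose in WT (1.14, SE 0.10, adjusted p = 1.13e-05).

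Most of the remaining members were called in WT alone or in no genotype. Dnajc2 (zuotin, a J protein at the ribosome) and Dnajc24 (a diphthamide synthesis factor) rose in WT (0.83 and 0.63 on the log2 scale) and in shPax6 (0.49 and 0.78). In WT the rises also took in Dnajc4 (1.23), Dnajc7 (0.48), a partner of both HSP70 and HSP90, Dnajc8 (0.69), a spliceosome protein that fell in JNK3 KO (-0.29), and Dnajc11 (0.58), of the mitochondrial cristae. The falls in WT took in Dnajc14 (-0.99), Dnajc16 (-0.92), Dnajc18 (-0.36) and Dnajc10 (-0.57), a disulfide reductase of the ER. Dnaja2, a constitutive partner of HSC70, fell in WT (-0.55) and shPax6 (-0.18), and Dnajb12, anchored in the ER membrane, rose in shPax6 (0.25). Under length correction the WT values were 0.68 for Dnajc2, 0.39 for Dnajc4, 0.06 for Dnajc8, -0.46 for Dnajc7 (adjusted p = 0.000636; -0.10 under TPM), -0.14 for Dnajc24, 0.07 for Dnajc10, 0.18 for Dnajc16 and 0.59 for Dnajc18. Dnaja3, Dnaja4, Dnajb3, Dnajb5, Dnajc1, Dnajc12, Dnajc13, Dnajc21, Dnajc25, Hspa12b, Hspa2, Hspb3 and Hspbap1 were the 13 called in none of the NMDA comparisons. Among them Dnajb3 held 0.39 and 0.93 then 1.00 and 1.16 FPKM in WT, 0.45 and 0.68 then 1.13 and 1.28 in shPax6, and 1.52 and 0.62 then 1.68 and 2.40 in JNK3 KO.

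**Figure D5:**
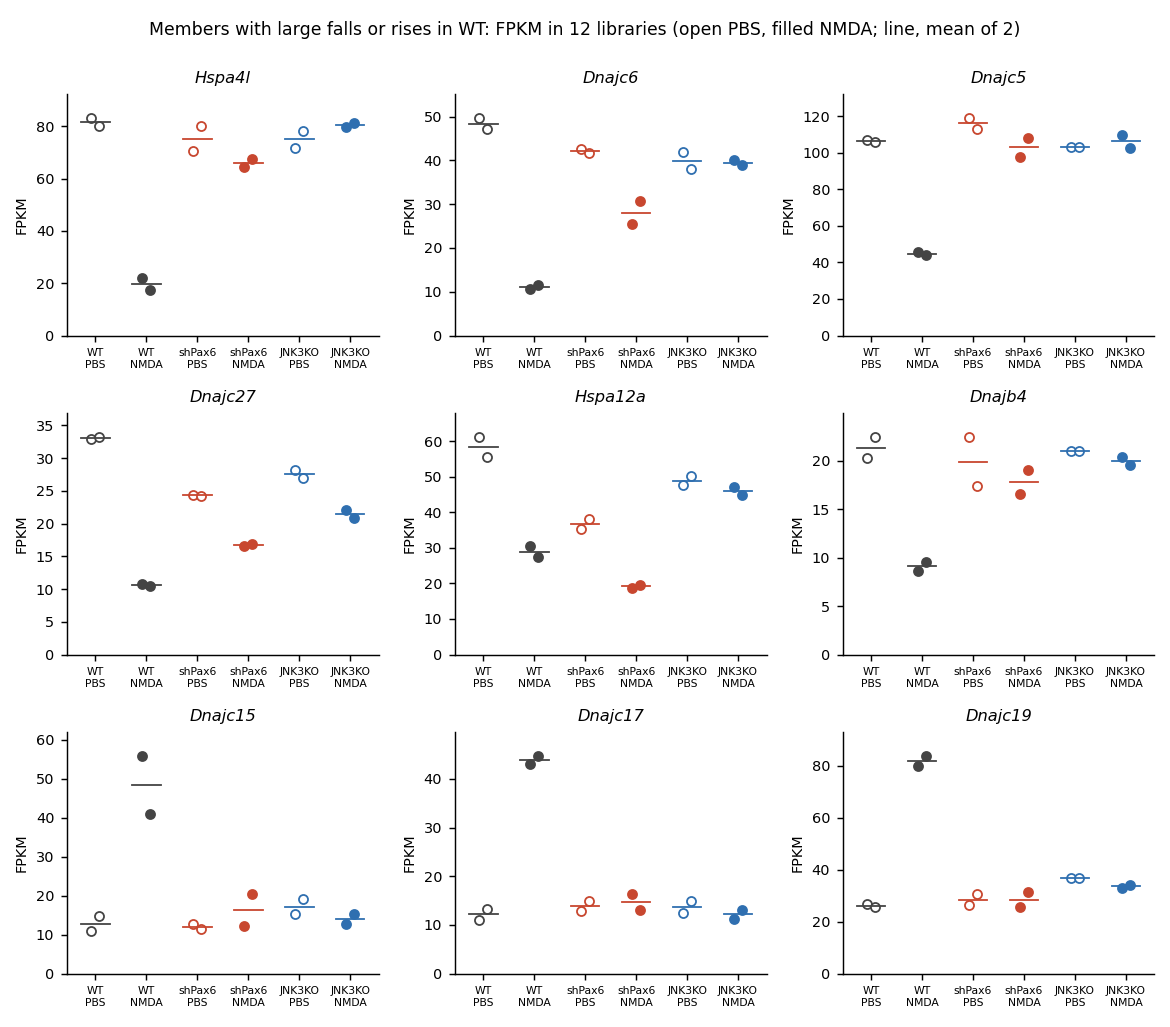
FPKM (vertical axes from 0, linear) of 9 members with large falls or rises in WT, in the 12 libraries, open circles for PBS, filled for NMDA, and a line at the mean of 2. In WT the NMDA libraries of Hspa4l, Dnajc6, Dnajc5, Dnajc27, Hspa12a and Dnajb4 lie below and those of Dnajc15, Dnajc17 and Dnajc19 above all other libraries, except that Hspa12a is lower still in shPax6 NMDA.

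Before NMDA the shPax6 retinas already differed in chaperones. Compared with WT under PBS, 6 members were higher and 11 lower (5.36% and 11.2% of all genes), or 9 and 8 after length correction. Hspa1a and Hspa1b were higher, by 0.88 (SE 0.09, adjusted p = 0.000214) and 0.80 (SE 0.10, adjusted p = 0.000948), with no overlap of libraries. Among the lower members, Hspb8 differed by -1.73 (SE 0.15, adjusted p = 9.91e-05) and Hsp90ab1 by -0.29 (SE 0.04, adjusted p = 0.00118). Dnaja4 (0.56, SE 0.12, adjusted p = 0.0111), Dnaja3 (0.31, SE 0.08, adjusted p = 0.0229), Hspa14 (0.47, SE 0.11, adjusted p = 0.019) and Hspa9 (0.23, SE 0.06, adjusted p = 0.0329) were the other members that were higher. With the spread of these 4 libraries alone 6 of the 17 were called, and without either WT PBS library 8 were. In JNK3 KO retinas under PBS 1 member was higher and 0 lower (1.10% and 0.407% of all genes): Dnajc9, by 0.36 (SE 0.07, adjusted p = 0.0493). Its call ended in 8 of 12 alternatives. The median log2 difference in that comparison was 0.1 for the members and 0 for all genes, or 0.03 and -0.05 under TPM.

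The responses themselves were compared in the same fit. The WT response exceeded that of shPax6 for 16 members and was below it for 21 (18.3% and 31.4% of all genes). The split was 9 and 39 under TPM, 11 and 24 with quantile normalization and 21 and 14 after length correction. The WT response exceeded that of JNK3 KO for 25 members and was below it for 18 (23.5% and 27.9%), and this split was 12 and 32 under TPM and 19 and 24 with quantile normalization. These differences share the WT libraries and their relation to length. The shPax6 response exceeded that of JNK3 KO for 12 members and was below it for 4 (12.1% and 5.62%; 9 in all without JNK3 KO NMDA replicate 2), a comparison added after the values of Hspa1a, Hspa1b and Hspb1 had been seen. Its split was 9 and 7 with 75th-percentile scaling, 8 and 9 with quantile normalization, and 6 and 6 after length correction. The 12 were Dnajc8, Hsf1, Hsp90b1, Hspa1a, Hspa1b, Hspa5, Hspb1, Hspb11, Hspb2, Hspb6, Hspb8 and Hspe1, and the 4 were Dnajb14, Dnajc6, Hspa12a and Hspa4. In this comparison Hspa1a stood at 2.28 (SE 0.12, adjusted p = 8.22e-06), Hspa1b at 2.35 (SE 0.14, adjusted p = 1.91e-05), Hspb8 at 2.58 (SE 0.21, adjusted p = 7.84e-05) and Hspa12a at -0.84 (SE 0.12, adjusted p = 0.00162).

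The wider chaperone machinery, a list of 57 tested genes outside the families above (other heat shock factors, chaperonin and prefoldin subunits, BAG proteins, HSP90 co-chaperones, ER folding enzymes and α-crystallins), moved in the same comparisons. In WT 37 rose and 10 fell (26.0% and 33.8% of all genes), with a median log2 difference of 0.61, but the split was 21 and 20 under TPM and 34 and 9 after length correction. The largest rises there were Cct3 (2.21) and Pfdn5 (1.95), and Chordc1 was among those that fell (-1.88). In shPax6 14 rose and 2 fell (19.1% and 11.0% of all genes), or 11 and 9 after length correction. Cryab, the αB-crystallin that sits beside Hspb2 and is also on the lens list, held 112 and 106 then 364 and 381 FPKM in WT, 98.3 and 104 then 477 and 479 in shPax6, and 109 and 109 then 177 and 175 in JNK3 KO. It rose by 1.78 (SE 0.05, adjusted p = 2.29e-08) in WT, 2.24 (SE 0.05, adjusted p = 2.79e-08) in shPax6 and 0.69 (SE 0.05, adjusted p = 6.8e-05) in JNK3 KO. Serpinh1 (HSP47), the collagen chaperone, held 12.1 and 12.3 then 22.4 and 19.7 FPKM in WT, 7.12 and 7.5 then 29.5 and 31.5 in shPax6, and 11.5 and 10.5 then 21.1 and 22.0 in JNK3 KO. Its shPax6 difference was 2.05 (SE 0.10, adjusted p = 1.73e-06), and the falls in shPax6 were Hsf4 (-1.88) and Fkbp4 (-0.25). In JNK3 KO 8 rose and 5 fell (4.33% and 6.10%), or 10 and 1 after length correction. Bag3, the partner of HSPB8, rose by 1.01 (SE 0.14, adjusted p = 0.00282) in JNK3 KO and by 1.11 (SE 0.14, adjusted p = 0.00012) in WT (0.54 under TPM), both of them genotypes in which Hspb8 fell, and by 1.97 (SE 0.14, adjusted p = 1.48e-05) in shPax6, where Hspb8 rose. Serpinh1 (0.97) rose and Hsf4 (-1.38) and Pfdn5 (-0.57) fell in JNK3 KO. A set of lens genes, of which 10 were tested and some are crystallins, summed to 694.03 to 709.2 FPKM in WT NMDA, 619.27 to 627.81 in shPax6 NMDA and 381.61 to 390.5 in JNK3 KO NMDA, against at most 255.67 under PBS. These sums include Cryab itself, so they are not separate from its values. Of the 10 tested 6 rose and 0 fell in WT, and 4 rose and 0 fell in JNK3 KO. In shPax6 4 rose and 2 fell, with a median log2 difference of 0.07. The part of lens tissue in the Cryab values was not tested.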

How the data were processed

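Retinal RNA of 12 libraries, each from more than 3 retinas, was sequenced as paired-end reads after poly(A)-primed library making (TruSeq mRNA). Per the submitters' processing notes, reads were aligned with STAR 2.7.1a to GRCm38.p6 and quantified with RSEM 1.3.3, and edgeR 3.36.0 in R 4.1.0 was used downstream. What the authors deposited are FPKM tables of genes and of transcripts, without counts, so depth is unknown and no counting interval can be given. Whether counting used strand is not given in the sources used here, and genes that overlap or share sequence (Hspa1a with Hspa1b, Hspb2 with Cryab, Dnaja4 with Wdr61, Dnajc30 with Bud23) are uncertain to that extent. All columns were mapped to samples by their names.

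Here log2(FPKM + 0.1) was fitted with limma 3.58.1 (R 4.3.3) over 16471 genes with a mean above 1 FPKM in at least 1 of 6 groups, with 6 group means, 6 residual degrees of freedom and an intensity trend. A call is a Benjamini-Hochberg adjusted p under 0.05 over all genes. Differences are on that log2 scale, which understates those of low genes. Lengths came from GENCODE M21 (141469 of 142699 transcripts matched) and promoters from RefSeq, GRCm38.p6. The length correction removed a lowess trend (span 0.3) from each library. It used 1 length per gene, that of the transcript with the highest mean FPKM. For some members the share of that transcript differed widely between libraries, as for Dnajc5 (33.4% to 97.1%), Hspa8 (19.8% to 76.9%) and Dnajc7 (29.9% to 79.3%). The length-corrected values of such genes are uncertain to that extent. Other settings were pseudocounts of 0.5 and 1, other filters, TPM, 75th-percentile scaling, quantile normalization, the spread of the compared groups alone, no intensity trend, a replicate block, summed transcripts, and each library left out. Values in every library are given for a list of well-known members and for the called members with the largest rises and falls in each comparison. From the list of other machinery, those with the largest rises and falls are named. A result for 1 gene that this rule would name is not reported here. The members, the lists and the comparison of shPax6 with JNK3 KO responses were chosen with earlier results of these data known.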

Additional observations from a re-analysis of the deposited data

Results flagged for a closer look

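The responses to NMDA of 41 gene and genotype pairs among the members differed between genotypes by a log2 value above 1 and passed limma's test (adjusted p under 0.05), tested as the difference of responses itself. They are given for every member that passed the filter on low values in all 6 groups, so Hspb2 and Hspb3, whose values rest on levels near 0, are left out. With 2 libraries per group no library could be tested as an outlier, and no explanation was tested.

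WT minus shPax6 was negative for Hspa1b (-2.59), Hspb8 (-2.31), Hspb1 (-2.24), Hspa13 (-2.16), Hspa1a (-1.96), Hspa4l (-1.87), Dnajc6 (-1.52), Dnajb9 (-1.42), Dnajc14 (-1.19), Dnajc27 (-1.09), Dnajc5 (-1.07), Dnajb4 (-1.07) and Dnaja1 (-1.01), and positive for Dnajc17 (1.76), Dnajc19 (1.65), Dnajc15 (1.51), Dnajc30 (1.46), Dnajc4 (1.38) and Hspbp1 (1.12). WT minus JNK3 KO shares the WT libraries with it. It was negative for Hspa13 (-2.45), Hspa4l (-2.16), Dnajc6 (-2.09), Dnajb9 (-1.55), Dnajb14 (-1.50), Dnajc5 (-1.29), Dnajc27 (-1.27) and Dnajb4 (-1.14), and positive for Dnajc15 (2.21), Dnajc17 (2.01), Dnajc19 (1.77), Hspb1 (1.34), Dnajc4 (1.26), Hspe1 (1.20), Hspb6 (1.16), Dnajc30 (1.12) and Hspbp1 (1.06). The shPax6 response minus the JNK3 KO response was positive for Hspb1 (3.58), Hspb8 (2.58), Hspa1b (2.35), Hspa1a (2.28) and Hspb11 (1.29).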

How the results depend on the processing

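Calls among the 66 members numbered 49 (WT), 27 (shPax6) and 14 (JNK3 KO) for NMDA, 17 (shPax6) and 1 (JNK3 KO) against WT under PBS, and 37, 43 and 16 for WT minus shPax6, WT minus JNK3 KO and shPax6 minus JNK3 KO. In that order they were 16, 6, 0, 3, 0, 20, 18 and 6 with an absolute log2 difference above 1 as well. The spread of the compared groups alone left 6, 8, 6 and 0 for shPax6, JNK3 KO and the PBS comparisons. Without the intensity trend JNK3 KO had 9 and JNK3 KO under PBS 0. Length correction gave 9, 0 and 28 for JNK3 KO, JNK3 KO under PBS and WT minus JNK3 KO. The call under PBS in JNK3 KO was also lost (0) with no filter, TPM, 75th-percentile scaling and quantile normalization, and became 2 with a filter on each gene's overall mean. With 1 library left out the ranges were 44 to 52, 21 to 32, 2 to 14, 8 to 20, 0 to 3, 34 to 42, 35 to 44 and 9 to 21. A lone library is then assumed to vary like the other groups.

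Among called values of all members some turned sign. For NMDA in WT they were under TPM Dnajc7 -0.10, Dnajc9 -0.06, Hsf1 0, Hsp90ab1 -0.12, Hsp90b1 -0.27, Hspa14 -0.11, Hspa1a -0.33, Hspa5 -0.24, Hspa9 -0.05 and Hspd1 -0.24, after length correction Dnajb14 0.39, Dnajc10 0.07, Dnajc16 0.18, Dnajc18 0.59, Dnajc24 -0.14, Dnajc3 0.35, Dnajc7 -0.46, Hsf1 -0.04, Hsp90aa1 0, Hspa12a 0.05, Hspa4 0.49 and Hspb11 -0.21, under quantile normalization Dnajc7 -0.17, Hsp90ab1 -0.50, Hsp90b1 -0.51, Hspa5 -0.42, Hspa8 -0.87, Hspa9 -0.03 and Hspd1 -0.21, with summed transcripts Dnajc7 -0.23. For NMDA in shPax6 they were after length correction Hspa8 -0.01. For WT minus JNK3 KO they were under TPM Dnajc2 -0.02, Dnajc21 -0.14, Dnajc7 -0.13, Hsp90ab1 -0.44, Hsp90b1 -0.38 and Hspa8 -0.12, after length correction Dnajb14 0.25, Dnajc1 0.22, Dnajc10 0.14, Dnajc16 0.28, Dnajc18 0.55, Dnajc3 0.10, Dnajc5 0.07, Dnajc7 -0.62, Hspa12a 0.27, Hspa4 0.25 and Hspb11 -0.27, under quantile normalization Dnajc7 -0.30, Hsp90ab1 -0.96, Hsp90b1 -0.71 and Hspa8 -1, with summed transcripts Dnajc7 -0.34. For WT minus shPax6 they were under TPM Dnajc12 -0.02, Hspa8 -0.12 and Hspa9 -0.15, after length correction Dnajb14 0.46, Dnajc12 -0.17, Dnajc16 0.31, Dnajc3 0.09 and Dnajc5 0.08, under quantile normalization Hspa8 -0.89 and Hspa9 -0.03. For shPax6 minus JNK3 KO they were after length correction Hspb6 -0.01, under quantile normalization Hsp90b1 -0.01. For shPax6 against WT under PBS they were with summed transcripts Dnajc7 0.04. The cause was not tested.

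The replicate numbers did not pair the libraries: over 15 pairs of groups the correlation of same-numbered deviations was -0.097 to 0.086. With the replicate block the calls were 49, 25, 11, 15, 0, 38, 41 and 16.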
